A study of Mus musculus with 84 samples.

Results

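Liver RNA was compared between 3 ob/ob mice and 3 wild-type (WT) mice, all on a high-fat diet (HFD). These are 6 of the 84 libraries of the series, chosen by the tissue, genotype and diet in their labels. The ob/ob mice are leptin-deficient, and every mouse is labelled 20 weeks, which may be its age or the length of feeding. Liver libraries of 3 ob/ob and 3 WT mice on a normal diet (ND) were used to estimate the spread and to test whether a genotype difference depended on the diet. The labels used here name neither the sex nor the strain background of the mice, and each library is 1 animal's bulk tissue.

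Leptin is a hormone of fat cells that restrains feeding, and mice without it overeat and become obese on any diet. On a high-fat diet WT mice also become obese, but with high circulating leptin, so the comparison sets obesity without leptin beside obesity with it. The liver answers both states through insulin, growth hormone, bile acids, cytokines and the load of stored fat, and much of that answer is visible in its messenger RNA.

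Total gene counts of the 6 libraries were between 10860694 and 13474615, and 13246 genes had enough counts to be tested. Levels are given as CPM, counts scaled to a common library size, and ± after a mean of CPM is the SD over 3 livers. A fold change is the log2 of ob/ob over WT with its standard error after ±, and adjusted p values are from edgeR's quasi-likelihood test over all genes tested. A gene is said to rise or fall only where that p is under 0.05. Nothing used here shows whether livers of a group came from separate litters or cages, so p values measure the spread between these animals. In bulk tissue, fewer cells of a type and less RNA per cell cannot be told apart.

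The genotypes differed in body measures. Circulating leptin was listed at 0 in every ob/ob mouse, against 850.2, 635.7 and 636.9 in WT mice, in a column headed ng/ml whose scale could not be checked. Body weight was 71.2, 72.3 and 80.8 in ob/ob mice, against 50.1, 46.4 and 47.7 in WT mice, and body fat was 44.5, 46.5 and 51.1 in ob/ob mice, against 20.1, 18.6 and 17.9 in WT mice. The liver weighed 3.04, 3.57 and 3.35 in ob/ob mice, against 3.01, 2.65 and 2.23 in WT mice. No unit is named for these 3 measures, and the groups did not overlap in any of them. The genotypes were thus not matched for obesity, and the lack of leptin and the degree of obesity cannot be told apart here. Aspartate aminotransferase, which leaks from injured liver cells, was 405, 717 and 604 U/L in ob/ob mice, against 345, 247 and 217 U/L in WT mice. Alanine aminotransferase, another such enzyme, was 302, 534 and 428 in ob/ob mice, against 333, 193 and 232 in WT mice, in U/L, and overlapped (exact two-sided permutation p = 0.2, adjusted 0.246). Fasting glucose, with no unit named, was lower in ob/ob mice, at 110.0, 118 and 117 in ob/ob mice, against 239, 259 and 188 in WT mice, whereas glucose in the blood work was 352 ± 75.8 in ob/ob mice, against 353 ± 64.7 in WT mice mg/dL (SD, n = 3 each) and overlapped. With 3 mice against 3, the exact two-sided permutation test cannot give a p under 0.1. That p was reached by 11 of the 16 measures, and adjusted over the 16 it is 0.146.

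Liver markers were abundant in all 6 libraries. Alb, which encodes albumin, was at 59162 ± 10612 CPM in ob/ob livers, against 63903 ± 5359 CPM in WT livers. Lep itself had 6 counts in all ob/ob and 2 counts in all WT libraries on HFD, so the liver does not check the genotype label. Exocrine pancreas markers summed to at most 0.417 CPM in a library, with 7 of 10 at 0. The summed CPM of the lymphocyte markers was 16.9 to 27.3 CPM in ob/ob livers, against 20.8 to 21.7 CPM in WT livers, and that of resident macrophage (Kupffer cell) markers was 810.1 to 1273 CPM in ob/ob livers, against 701 to 883 CPM in WT livers. A single ob/ob library, that of mouse 2, stood apart in bile duct markers, which summed to 75.6 CPM. It also had the highest sums of the 6 for resident and lipid-associated macrophage, stellate cell, lymphocyte and neutrophil markers. Its sums were the lowest of the 6 for hepatocyte, endothelial and adipocyte markers. Epcam, an epithelial adhesion protein of bile duct and progenitor cells, had 0.448, 7.93 and 0.674 CPM in ob/ob livers, against 0.733, 0.598 and 0.483 CPM in WT livers. WT mouse 3 stood apart for male-biased genes, whose summed level was the highest of the 6 in that liver, as described below.

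Of the 13246 genes, 1140 rose in ob/ob livers on HFD (8.61% of those tested) and 1305 fell (9.85%), together 18.5%. At least 2-fold changes were found for 280 genes that rose (2.11%) and 298 that fell (2.25%). The median log2 fold change of all genes tested was 0.0079. The groups did not overlap in CPM for 2211 genes with ob/ob higher (16.7%) and 2257 with ob/ob lower (17%). A lack of overlap was therefore common, and by itself it sets no gene apart. The shares that rose and fell among all genes are the ones to set beside each count of a list below. Without WT mouse 1, 695 genes rose and 942 fell. The calls were unevenly shared among groups of genes, as the plot of gene lists shows: interferon-stimulated genes, chaperones of the endoplasmic reticulum and cytosol, and male-biased genes fell in large numbers, while shares that rose were above that of all genes in female-biased, periportal, amino acid, lipid-associated macrophage and acute phase genes, among others.

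**Figure D1:**
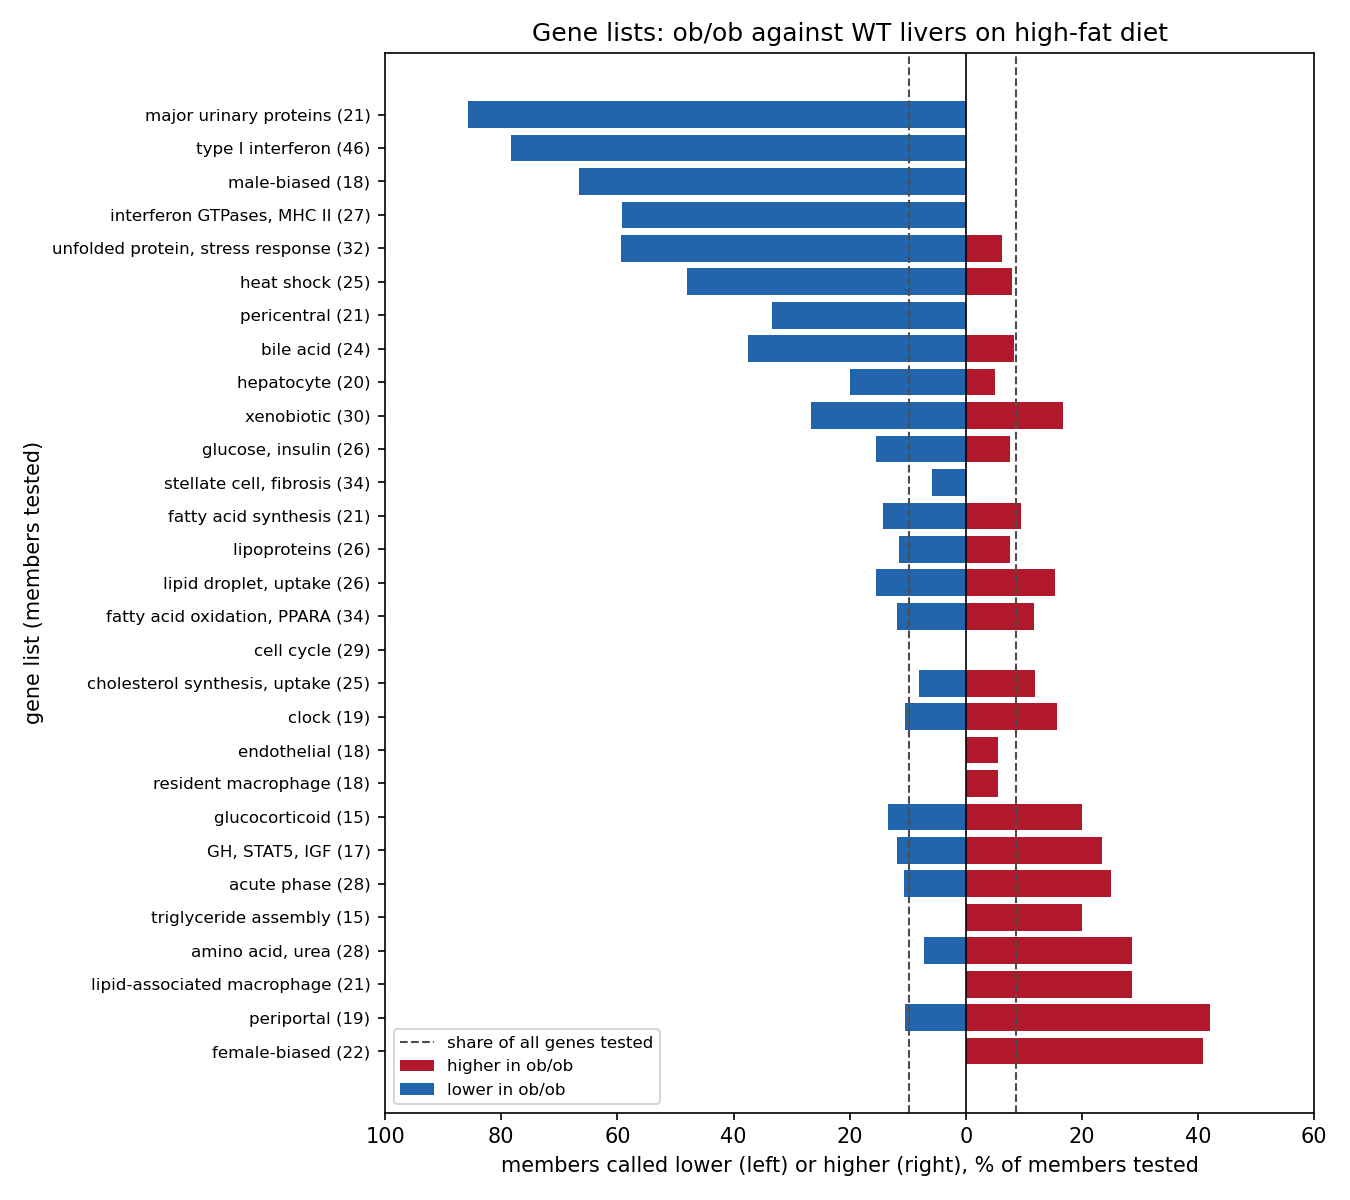
Share of each gene list called higher (red, right) or lower (blue, left) in ob/ob than in WT livers on HFD, in percent of the members tested, whose number stands after the list's name; lists with at least 15 tested members are drawn. Dashed lines mark the shares among all genes tested, 8.61% higher and 9.85% lower. The longest bars are those of major urinary proteins and type I interferon genes, both on the lower side.

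Type I interferon genes were lower in the ob/ob livers almost throughout. Type I interferons signal through the kinases JAK1 and TYK2 to a complex that contains STAT2 and IRF9, which binds the interferon-stimulated response element and turns on antiviral genes; in fatty liver, such genes are expressed by hepatocytes and by immune cells. Of 46 genes in the list, all tested, 36 fell and 0 rose, where 9.85% of all genes fell. The median log2 fold change of the 46 was -1.06, and single members ranged from -2.60 to 0.92.

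The sequences just upstream of 3 of these genes are shown because they hold letters of the response element. They are RefSeq bases of GRCm38.p6 read 5′ to 3′ on the gene's strand. Capitals mark matches to a core of the response element, GAAA, any 2 bases and GAAA, on either strand, and in Isg15 overlapping matches run together.
Ifit3: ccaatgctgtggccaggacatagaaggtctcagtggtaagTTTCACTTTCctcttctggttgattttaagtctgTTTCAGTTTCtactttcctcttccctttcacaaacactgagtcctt
Isg15: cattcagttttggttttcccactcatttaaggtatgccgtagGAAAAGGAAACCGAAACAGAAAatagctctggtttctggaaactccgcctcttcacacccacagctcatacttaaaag
Ifit1: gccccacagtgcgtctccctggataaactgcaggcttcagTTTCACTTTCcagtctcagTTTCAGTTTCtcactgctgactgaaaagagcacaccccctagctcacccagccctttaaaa
The windows lie at chr19:34583333-34583452, plus strand, for Ifit3, at chr4:156200819-156200938, minus strand, for Isg15, and at chr19:34640745-34640864, plus strand, for Ifit1. Within the 250 bases before the start, 10 of the 24 genes that fell and have an entry held a match, as did 2 of the 8 list members that did not fall, against 3.46% of 27025 genes with an entry. A match is a string of letters and was not tested as a binding site.

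Of the transcription factors, Irf9 (chr14:55603571-55610030, GRCm38), the DNA-binding subunit, had 15.4, 19.2 and 17.01 CPM in ob/ob livers, against 35.8, 39.2 and 40.8 CPM in WT livers. The groups were far apart, and the fold change was -1.16 ± 0.10 (adjusted p = 2.48e-05). Stat2 had 33.6, 39.1 and 37.4 CPM in ob/ob livers, against 46.2, 52.7 and 50.7 CPM in WT livers, a smaller drop of -0.44 ± 0.09 on the log2 scale (adjusted p = 0.00484). Irf7, the factor that amplifies interferon production, had 19.7, 27.3 and 22.6 CPM in ob/ob livers, against 47.1, 42 and 56.1 CPM in WT livers, and its log2 fold change was -1.06 ± 0.15 (adjusted p = 5.34e-04). None of these 3 genes overlapped between the groups, and WT mouse 3 was the highest of the 6 for Irf9 and Irf7.

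Antiviral effector genes fell as well. Ifit3 (chr19:34583531-34588731), whose product binds viral RNA together with IFIT1, had 6.27, 4.38 and 5.695 CPM in ob/ob livers, against 19.9, 18.7 and 34.98 CPM in WT livers. For Ifit3, the log2 fold change was -2.16 ± 0.23 (adjusted p = 9.90e-05). Ifit1 had 6.57, 8.27 and 7.27 CPM in ob/ob livers, against 27.6, 21.6 and 42.5 CPM in WT livers, with a log2 fold change of -2.04 ± 0.25 (adjusted p = 1.95e-04). Isg15, a ubiquitin-like protein that is attached to others during the interferon response, had 3.51, 4.24 and 3.897 CPM in ob/ob livers, against 14.8, 12.8 and 22.5 CPM in WT livers, a log2 fold change of -2.09 ± 0.24 (adjusted p = 1.51e-04). Every WT liver was above every ob/ob liver for these 3 genes. The antiviral PARP-family gene Parp14 and the interferon-induced chaperone Rtp4 had log2 fold changes of -0.96 ± 0.10 (adjusted p = 8.71e-05) and -1.38 ± 0.16 (adjusted p = 1.32e-04). By family, 4 of 4 IFIT genes and 6 of 7 oligoadenylate synthetase genes, whose products sense double-stranded RNA, fell. Ifit1, Isg15 and the families were picked after their values were seen.

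Many interferon-induced immunity GTPase genes were also lower, while class II genes were not called. The list held immunity GTPases, antigen processing genes and class II genes of the major histocompatibility complex. Of its 27 tested members 16 fell and 0 rose, against 9.85% and 8.61% of all genes, with a median of -0.91. Gbp10 (chr5:105215699-105239533), a guanylate-binding protein that attacks the membranes around intracellular microbes, had 1.57, 1.18 and 1.95 CPM in ob/ob livers, against 19.2, 12.9 and 31.4 CPM in WT livers. This was a log2 fold change of -3.75 ± 0.30 (adjusted p = 1.21e-05), and it lay below that of the other members. Irgm1, which governs the related IRG family of GTPases, had 52.8, 47.6 and 47.4 CPM in ob/ob livers, against 107, 97.8 and 129.6 CPM in WT livers, a log2 fold change of -1.18 ± 0.10 (adjusted p = 2.29e-05). Irgm2 had a log2 fold change of -1.09 ± 0.12 (adjusted p = 1.08e-04). Tap1, which pumps peptides to class I molecules, had 16.2, 19.3 and 17.1 CPM in ob/ob livers, against 29.2, 31.3 and 38.9 CPM in WT livers, a log2 fold change of -0.91 ± 0.13 (adjusted p = 5.34e-04). Among the 9 guanylate-binding protein genes 6 fell, the remaining members having log2 fold changes from -0.91 to -0.71. The 7 class II genes, the invariant chain and their master regulator Ciita included, had log2 fold changes between -0.50 and 0.25, and 0 of them had a p under 0.05 even unadjusted (edgeR); Ciita had 1.34, 2.71 and 1.27 CPM in ob/ob livers, against 2.42, 2.91 and 2.22 CPM in WT livers. These families, too, were picked after the values were seen. Lymphocyte and resident macrophage marker sums, given above, overlapped between the genotypes, and their part in the interferon result was not tested.

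The genotype difference in interferon genes was larger on HFD than on ND. On ND the median log2 fold change of the 46 type I genes was -0.10, with 9 that rose and 10 that fell there, where 19.3% of all genes tested rose and 17.1% fell on ND. The interaction (the genotype difference on HFD minus that on ND) passed the threshold in 19 of them, all in the lower direction, against 3.96% of all genes tested. In 41 of the 46, the mean was highest in WT livers on HFD among the 4 groups. Ifit3 on ND had 8.96, 7.59 and 6.42 CPM in ob/ob livers, against 4.15, 4.16 and 4.47 CPM in WT livers, so that its interaction was -3.01 ± 0.34 (adjusted p = 3.99e-04). Gbp10 on ND had 1.76, 1.405 and 1.57 CPM in ob/ob livers, against 2.68, 2.95 and 2.95 CPM in WT livers, and its interaction was -2.89 ± 0.48 (adjusted p = 0.00389). For both genes, the WT livers on HFD stood above all other groups. On ND, every ob/ob liver was above every WT liver for Ifit3, the reverse of HFD, and below every WT liver for Gbp10.

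**Figure D2:**
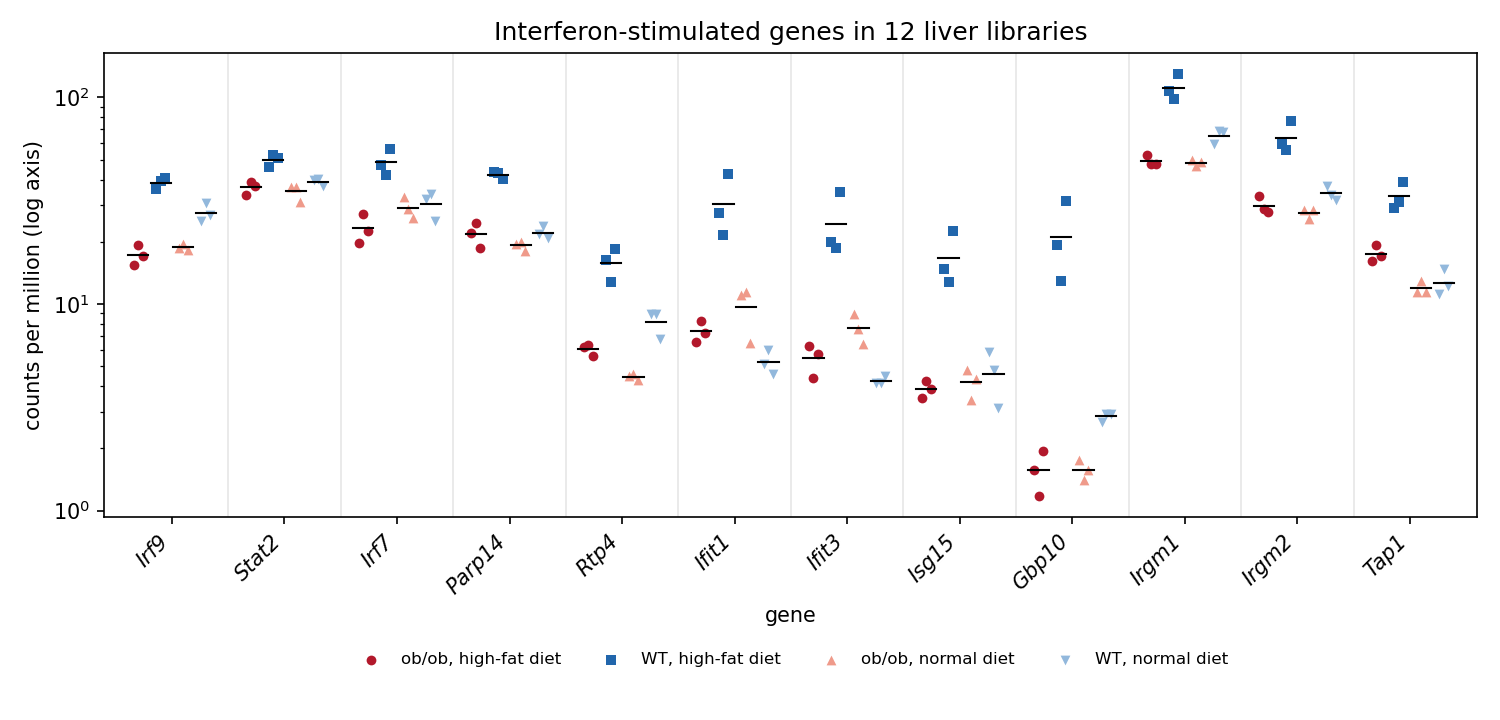
CPM (log axis) of 12 interferon-stimulated genes in each of 12 liver libraries, with ob/ob HFD, WT HFD, ob/ob ND and WT ND from left to right for each gene; bars are group means. WT livers on HFD are highest for all 12, for example 18.7 to 34.98 CPM for Ifit3 against 4.38 to 6.27 CPM in ob/ob livers on HFD.

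Chaperones of the endoplasmic reticulum were lower in the ob/ob livers on HFD. Proteins that misfold in the endoplasmic reticulum activate the sensors IRE1, PERK and ATF6, which raise chaperones and degradation factors through XBP1, ATF4 and cleaved ATF6. In the list of unfolded protein and integrated stress response genes, 19 of 32 fell and 2 rose, against 9.85% and 8.61% of all genes. The median log2 fold change was -0.46. Hspa5, which encodes BiP, the main chaperone of the compartment, had 429, 506 and 514 CPM in ob/ob livers, against 1061, 1386 and 1267 CPM in WT livers. The groups did not overlap, and its log2 fold change was -1.36 ± 0.12 (adjusted p = 2.29e-05). Creld2 (chr15:88819646-88826681), a folding factor secreted under stress, had 13.8, 12.9 and 17.01 CPM in ob/ob livers, against 49.6, 81.98 and 69.2 CPM in WT livers. That is a log2 fold change of -2.20 ± 0.16 (adjusted p = 7.19e-06). Hyou1, a chaperone that works with BiP, had 43.1, 54.9 and 56.95 CPM in ob/ob livers, against 162, 229.6 and 190.2 CPM in WT livers, a log2 fold change of -1.91 ± 0.15 (adjusted p = 9.93e-06). Syvn1, the ubiquitin ligase of endoplasmic reticulum-associated degradation, had 38.8, 39.8 and 36.4 CPM in ob/ob livers, against 83.3, 117 and 91.2 CPM in WT livers, a log2 fold change of -1.34 ± 0.12 (adjusted p = 2.81e-05). All 3 ob/ob livers lay below all 3 WT livers for each of these genes.

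The upstream sequences of 2 of them are shown because they hold the endoplasmic reticulum stress element, which ATF6 binds together with NF-Y. Capitals mark the match to CCAAT, any 9 bases and CCACG, on either strand, and this motif was added after the values of the list were seen.
Creld2: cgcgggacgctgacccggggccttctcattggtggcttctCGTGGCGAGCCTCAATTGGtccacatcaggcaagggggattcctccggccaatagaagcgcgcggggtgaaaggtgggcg
Syvn1: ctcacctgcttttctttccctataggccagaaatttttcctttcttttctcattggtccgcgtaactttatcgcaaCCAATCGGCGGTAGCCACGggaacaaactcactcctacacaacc
The windows are RefSeq bases of GRCm38.p6 at chr15:88819480-88819599, plus strand, for Creld2 and at chr19:6046456-6046575, plus strand, for Syvn1. Within the 250 bases before the start, 8 of the 17 genes that fell and have an entry held a match, against 1 of the 12 other members and 0.130% of 27025 genes with an entry. The match describes the letters and is no test of ATF6.

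The transcription factors of the response moved less than the chaperones. Xbp1 had 151, 149 and 148 CPM in ob/ob livers, against 176, 192 and 212 CPM in WT livers, a log2 fold change of -0.37 ± 0.08 (adjusted p = 0.00841), without overlap. Atf4 had 74.8, 69.5 and 71.9 CPM in ob/ob livers, against 63.8, 62.6 and 80.3 CPM in WT livers and Ddit3, which encodes the pro-apoptotic factor CHOP, had 6.72, 8.62 and 12.7 CPM in ob/ob livers, against 9.75, 8.89 and 13.9 CPM in WT livers. Both overlapped, with log2 fold changes of 0.07 ± 0.12 (adjusted p = 0.736) and -0.21 ± 0.21 (adjusted p = 0.537). Asns, which encodes asparagine synthetase and is a target of ATF4, went the other way from the chaperones. It had 2.01, 2.64 and 2.62 CPM in ob/ob livers, against 0.147, 0.224 and 0.2899 CPM in WT livers, a low level that rests on 100 counts in all ob/ob and 8 counts in all WT libraries. The log2 fold change of Asns was 3.44 ± 0.40 (adjusted p = 1.58e-04), and its interaction with diet was 4.22 ± 0.55 (adjusted p = 8.10e-04). Asns was picked after its values were seen.

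Cytosolic heat shock genes fell as well, and the cold-inducible RNA-binding protein genes of the same list rose. Heat shock proteins are raised by the factor HSF1 when proteins unfold in the cytosol. Of 25 tested members 12 fell and 2 rose, against 9.85% and 8.61% of all genes, with a median log2 fold change of -0.31. Hsph1, a nucleotide exchange factor of HSP70, had 10.7, 12.2 and 13.6 CPM in ob/ob livers, against 51.95, 78.5 and 57.8 CPM in WT livers. With no overlap, its log2 fold change was -2.37 ± 0.18 (adjusted p = 9.89e-06). Fkbp4, a co-chaperone of HSP90 and steroid receptors, had 69.3, 67.99 and 73.7 CPM in ob/ob livers, against 139.5, 136 and 138 CPM in WT livers, a log2 fold change of -0.97 ± 0.08 (adjusted p = 1.77e-05). Stip1, which links HSP70 and HSP90, had a log2 fold change of -0.80 ± 0.10 (adjusted p = 1.88e-04). Hsf1 itself had 8.81, 10.01 and 7.94 CPM in ob/ob livers, against 11.6, 10.2 and 11.3 CPM in WT livers, and its log2 fold change of -0.31 ± 0.15 did not pass (adjusted p = 0.183).

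Cirbp and Rbm3 encode RNA-binding proteins that are induced when cells cool. Cirbp had 37.01, 32.95 and 26.4 CPM in ob/ob livers, against 11.3, 10.01 and 10.1 CPM in WT livers, a log2 fold change of 1.61 ± 0.19 (adjusted p = 1.88e-04). Rbm3 had 66.7, 72.6 and 66.3 CPM in ob/ob livers, against 26.8, 20.8 and 43.4 CPM in WT livers, a log2 fold change of 1.19 ± 0.20 (adjusted p = 0.00156). These are the 2 members that rose, in each case with every ob/ob liver above every WT liver. No body temperature was used here.

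The chaperone genes also differed by genotype on ND. Of the 21 unfolded protein genes called on HFD, 18 were called in the same direction on ND, as were 13 of the 14 heat shock list calls, against 66.1% of all 2445 genes called on HFD. Creld2 had a log2 fold change of -2.12 on ND, with an interaction of -0.08 ± 0.23 (adjusted p = 0.884). Hsph1 had -2.62 on ND and an interaction of 0.25 ± 0.26 (adjusted p = 0.626). In the 32 unfolded protein genes the interaction passed for 3 in the higher and 1 in the lower direction, where 2.2% and 3.96% of all genes did. An interaction that misses the threshold does not show that the effects are equal.

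**Figure D3:**
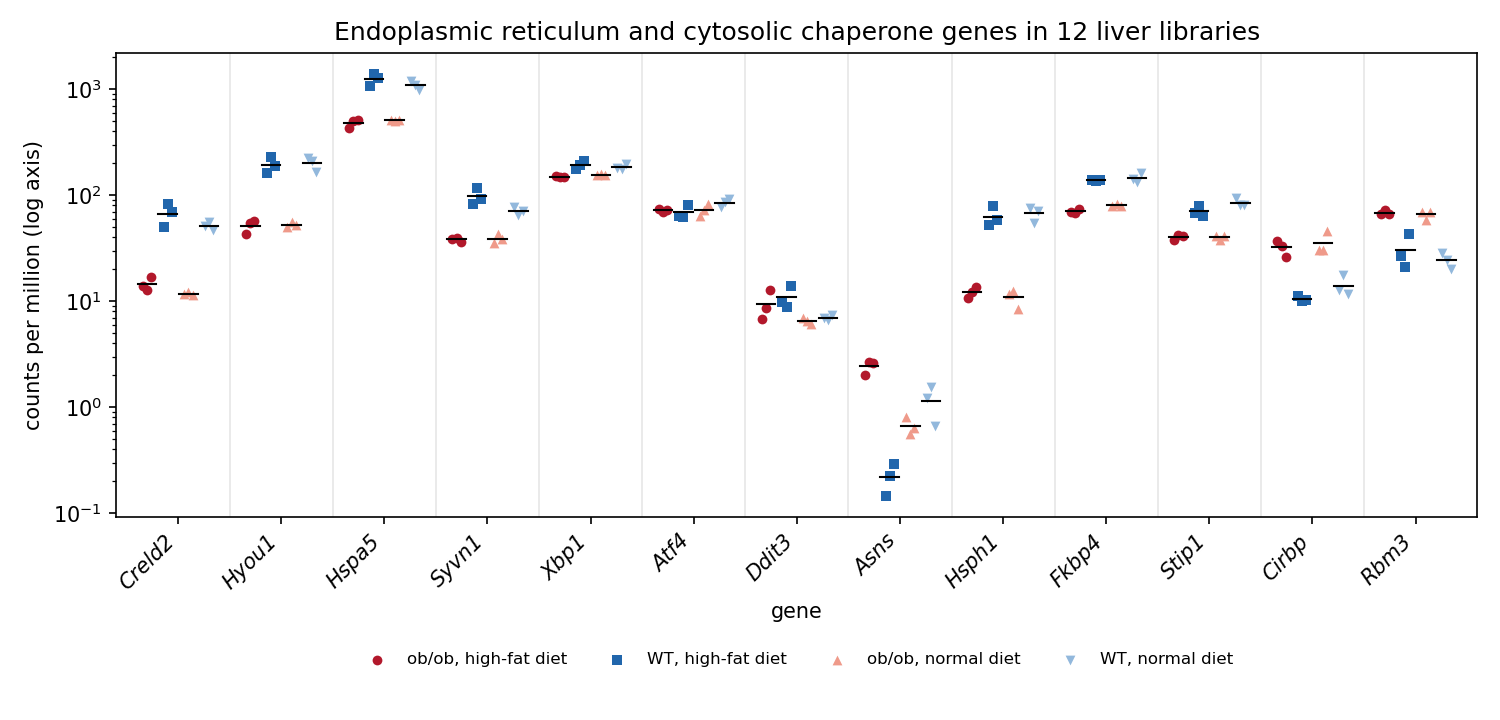
CPM (log axis) of endoplasmic reticulum genes (Creld2 to Asns) and of cytosolic heat shock and cold-inducible genes (Hsph1 to Rbm3) in 12 liver libraries, ordered ob/ob HFD, WT HFD, ob/ob ND and WT ND within a gene; bars are group means. Hspa5 lies at 429 to 514 CPM in ob/ob livers on HFD, below 1061 to 1386 CPM in WT livers on HFD.

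Male-biased liver genes were lower in the ob/ob livers. In mice, growth hormone is secreted in pulses in males and more evenly in females, and through its receptor and STAT5B this pattern keeps sets of liver genes high in one sex. In the list of male-biased genes other than major urinary proteins, 12 of 18 tested fell and 0 rose, with a median log2 fold change of -1.49. Among all genes, 9.85% fell and 8.61% rose. The count of male-biased genes that fell depended on single animals: it was 6 without WT mouse 3 and 7 without ob/ob mouse 1. Cyp7b1 (chr3:18071950-18243338), an oxysterol hydroxylase of bile acid synthesis, had 13.8, 9.11 and 13.6 CPM in ob/ob livers, against 44.6, 50.2 and 97.3 CPM in WT livers. For Cyp7b1, the log2 fold change was -2.39 ± 0.27 (adjusted p = 1.45e-04). Elovl3, which elongates very long fatty acids, had 31.9, 11.6 and 21.4 CPM in ob/ob livers, against 98.3, 115 and 145 CPM in WT livers, a log2 fold change of -2.47 ± 0.31 (adjusted p = 2.46e-04). Cyp2u1, a fatty acid hydroxylase, had 6.64, 5.14 and 6.59 CPM in ob/ob livers, against 19.3, 16.5 and 28.99 CPM in WT livers, a log2 fold change of -1.81 ± 0.19 (adjusted p = 8.27e-05). None of these 3 genes overlapped between the groups. Susd4, a complement regulator, had a log2 fold change of -2.95 ± 0.42 (adjusted p = 5.99e-04).

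WT mouse 3 carried the largest share of several of these transcripts. Slco1a1, an organic anion transporter, had 3.51, 4.73 and 4.05 CPM in ob/ob livers, against 26.9, 60.2 and 402 CPM in WT livers. Its log2 fold change was -5.30 ± 0.85 (adjusted p = 0.00112), and -3.41 without WT mouse 3 (adjusted p = 1.63e-04). Hsd3b5, a male steroid-metabolising enzyme, had 0.298, 0 and 0.1499 CPM in ob/ob livers, against 0.513, 1.57 and 58.7 CPM in WT livers. The Hsd3b5 log2 fold change of -6.96 ± 1.86 (adjusted p = 0.0198) was -2.75 and no longer passed without WT mouse 3 (adjusted p = 0.0915), nor without any one of the ob/ob mice (adjusted p = 0.0511, 0.06301 and 0.0587 without mouse 1, 2 and 3). Bcl6, a repressor that holds female-biased genes down, had 6.12, 8.97 and 7.64 CPM in ob/ob livers, against 21.6, 27.1 and 61.2 CPM in WT livers, a log2 fold change of -2.26 ± 0.58 (adjusted p = 0.0164) that missed the threshold without ob/ob mouse 1 (adjusted p = 0.0512) or WT mouse 3 (adjusted p = 0.0687). The motif TTCNNNGAA, a core of STAT5 sites that reads the same on both strands, stood before 1 of 9 male-biased genes that fell and have an entry, against 8.13% of 27025 genes.

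The major urinary proteins, pheromone carriers made in large amounts by male liver, gave the lowest fold changes of the whole comparison. They lie in a cluster of near-identical genes on chromosome 4, and without an option for reads with several matches their single values are uncertain. Of 21 tested genes 18 fell and 0 rose, against 9.85% and 8.61% of all genes. The median log2 fold change was -5.83, and single members ranged from -10.80 to 1.68, with 1 of them positive. The sum over the family was 1084 to 3619 CPM in ob/ob livers, against 7087 to 32151 CPM in WT livers. Mup3 (chr4:62083476-62087342), the most abundant, had 652, 1118 and 1125 CPM in ob/ob livers, against 5371, 6030 and 14486 CPM in WT livers. For Mup3, the log2 fold change was -3.16 ± 0.37 (adjusted p = 1.55e-04), and -2.56 without WT mouse 3. Mup6 had 3.21, 9.52 and 8.84 CPM in ob/ob livers, against 166, 169.5 and 898 CPM in WT livers, a log2 fold change of -5.83 ± 0.71 (adjusted p = 1.95e-04), or -4.54 without WT mouse 3. Mup17 had 0.895, 4.94 and 4.35 CPM in ob/ob livers, against 125, 262 and 2302 CPM in WT livers, a log2 fold change of -8.03 ± 1.22 (adjusted p = 8.18e-04), or -5.83 without WT mouse 3. In every one of these genes all 3 WT livers were above all 3 ob/ob livers. WT mouse 3 was the highest of them, at a level like that of the WT livers on ND, where Mup17 was at 2009, 2305 and 1428 CPM.

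Mup11 had 0.0746, 1.18 and 0.674 CPM in ob/ob livers, against 119, 163 and 3274 CPM in WT livers, a log2 fold change of -10.80 ± 1.70 (adjusted p = 9.89e-04), or -7.73 without WT mouse 3 and -11.59 without ob/ob mouse 2. Mup7 had 0.298, 1.39 and 1.57 CPM in ob/ob livers, against 38.03, 125 and 5576 CPM in WT livers, a log2 fold change of -10.76 ± 2.29 (adjusted p = 0.00614), or -6.21 without WT mouse 3. Mup1, Mup12 and Mup18 had log2 fold changes of -8.30 ± 1.54, -9.10 ± 1.61 and -7.81 ± 1.35 (adjusted p = 0.00268, 0.00199 and 0.00171). Without WT mouse 3 these were -5.50, -6.18 and -4.82, and without ob/ob mouse 3 that of Mup18 was -9.03. Mup16 and Mup19 had only 2 counts each over the ob/ob libraries, so only levels are given. Mup16 had 0, 0.139 and 0 CPM in ob/ob livers, against 2.27, 6.58 and 68.6 CPM in WT livers, and Mup19 had 0, 0 and 0.1499 CPM in ob/ob livers, against 4.18, 3.96 and 18.7 CPM in WT livers. The WT livers differed among themselves by far more than the ob/ob livers in all of these genes, but no WT liver came down to the ob/ob range. Genes with the 12 lowest fold changes were named only without overlap, so for those the separation was set by the choice.

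Female-biased genes moved the opposite way, though less uniformly. Of 22 tested, 9 rose and 0 fell, against 8.61% of all genes that rose, and the median log2 fold change was 0.76. Single members ranged from -1.75 to 6.05, and 5 had a negative log2 fold change. The summed level of the list overlapped, at 478 to 800 CPM in ob/ob livers, against 318 to 720 CPM in WT livers. The number that rose was 5 without ob/ob mouse 1 or without WT mouse 2. Sult1e1 (chr5:87575969-87591594), which inactivates oestrogen by sulfation, had 15.4, 78.3 and 46.7 CPM in ob/ob livers, against 0.513, 0.673 and 0.966 CPM in WT livers. This was the highest log2 fold change among the named genes, 6.05 ± 0.66 (adjusted p = 1.08e-04), and 5.46 without ob/ob mouse 2. Ntrk2, the receptor of brain-derived neurotrophic factor, had 20.5, 44.8 and 20.5 CPM in ob/ob livers, against 2.93, 5.01 and 4.44 CPM in WT livers, a log2 fold change of 2.80 ± 0.32 (adjusted p = 1.56e-04). Cyp2a4, a testosterone hydroxylase, had 35.9, 42.1 and 99.1 CPM in ob/ob livers, against 15.97, 6.05 and 3.58 CPM in WT livers, a log2 fold change of 2.75 ± 0.50 (adjusted p = 0.00253), or 2.15 without ob/ob mouse 3 and 3.59 without WT mouse 1. Fmo2, a flavin monooxygenase, had 38.5, 39.6 and 29.2 CPM in ob/ob livers, against 17.8, 16.4 and 14.6 CPM in WT livers, a log2 fold change of 1.13 ± 0.22 (adjusted p = 0.00311). Cux2, a female-specific repressor of male genes, had 5.75, 0.417 and 2.17 CPM in ob/ob livers, against 0.293, 0.224 and 0.5798 CPM in WT livers and overlapped. The Cux2 log2 fold change of 2.94 ± 0.83 (adjusted p = 0.0251) was 1.83 without ob/ob mouse 1 (adjusted p = 0.123), and it missed the threshold without WT mouse 1 or 2 as well (adjusted p = 0.08299 and 0.0815).

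The growth hormone pathway itself was measured in 17 genes, of which 4 rose and 2 fell, against 8.61% and 9.85% of all genes. Ghr, the growth hormone receptor, had 307, 254 and 337 CPM in ob/ob livers, against 483, 491 and 489.8 CPM in WT livers. The log2 fold change of Ghr was -0.70 ± 0.10 (adjusted p = 5.52e-04), without overlap. Socs2, a STAT5 target that damps the receptor's signal, had 12.8, 8.13 and 13.1 CPM in ob/ob livers, against 1.83, 2.02 and 1.64 CPM in WT livers, a log2 fold change of 2.62 ± 0.48 (adjusted p = 0.00268), and it did not overlap either. Cish, a like inhibitor, had 12.9, 6.88 and 8.54 CPM in ob/ob livers, against 2.86, 3.44 and 2.13 CPM in WT livers, a log2 fold change of 1.73 ± 0.52 (adjusted p = 0.0355). Igf1, the hormone that growth hormone induces in liver, had 527, 349.6 and 403 CPM in ob/ob livers, against 248, 285 and 415 CPM in WT livers, a log2 fold change of 0.43 ± 0.20 (adjusted p = 0.153). That value is 0.68 and passes without WT mouse 3 (adjusted p = 0.0317).

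The leptin receptor gene, Lepr, had 3.81, 7.51 and 5.395 CPM in ob/ob livers, against 2.42, 2.62 and 2.42 CPM in WT livers. For Lepr, the log2 fold change was 1.16 ± 0.34 (adjusted p = 0.0285). Onecut1, a hepatocyte transcription factor in the list, had 9.18, 3.198 and 3.37 CPM in ob/ob livers, against 1.61, 1.87 and 1.35 CPM in WT livers, a log2 fold change of 1.68 ± 0.49 (adjusted p = 0.0292), which was 1.01 without ob/ob mouse 1. The calls of these genes depended on single animals. Cish missed the threshold in 5 of the 6 fits that leave out 1 animal (adjusted p up to 0.106, without ob/ob mouse 1), Lepr in 5 (up to 0.111, without ob/ob mouse 2) and Onecut1 in 4 (up to 0.136, without ob/ob mouse 1). The count of genes that rose in the list was between 1, without WT mouse 1 or 2, and 3.

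**Figure D4:**
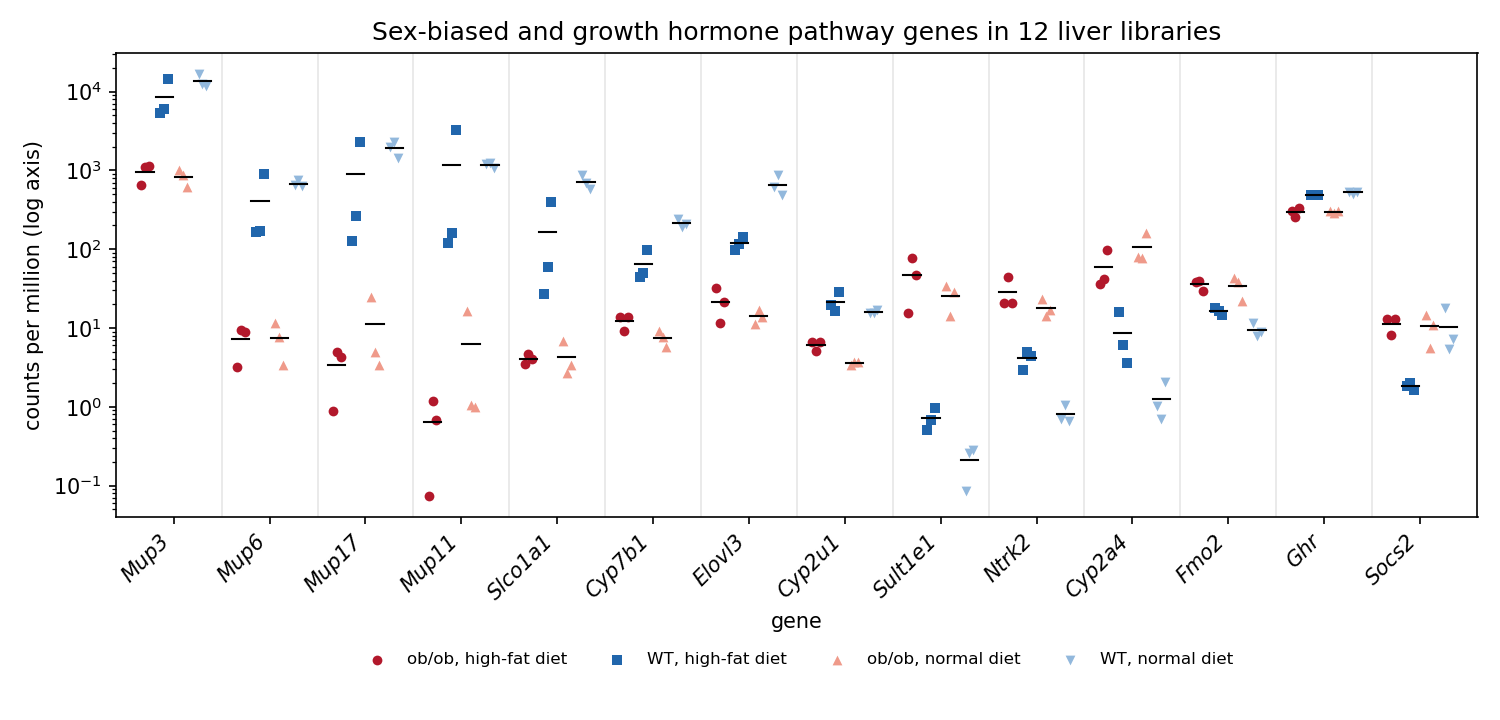
CPM (log axis) of male-biased genes (Mup3 to Cyp2u1), female-biased genes (Sult1e1 to Fmo2) and the growth hormone pathway genes Ghr and Socs2 in 12 liver libraries, ordered ob/ob HFD, WT HFD, ob/ob ND and WT ND within a gene; bars are group means. For Mup17 one WT liver on HFD reaches the level of the WT livers on ND, while the ob/ob livers on HFD stay between 0.895 and 4.94 CPM.

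Sex-biased genes differed by genotype on ND as well. The median over the male-biased list was -2.78 there (log2 fold change). A positive interaction, that is, a less negative genotype difference on HFD, passed in 7 of its 18 genes, against 2.2% of all genes tested. Elovl3 on ND had 11.4, 16.9 and 13.8 CPM in ob/ob livers, against 618, 866 and 481 CPM in WT livers, and its interaction was 3.07 ± 0.43 (adjusted p = 0.00134). Cyp7b1 on ND had 9.03, 7.796 and 5.78 CPM in ob/ob livers, against 242, 190.0 and 209 CPM in WT livers, and its interaction was 2.43 ± 0.39 (adjusted p = 0.00301). In both genes the ob/ob livers were low on either diet, and the WT livers on HFD lay between them and the WT livers on ND. In the female-biased list a negative interaction passed in 5 of 22 genes, against 3.96% of all genes tested, and its ND median was 3.42. In the major urinary protein list, the interaction passed for 0 of 21 genes.

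**Figure D5:**
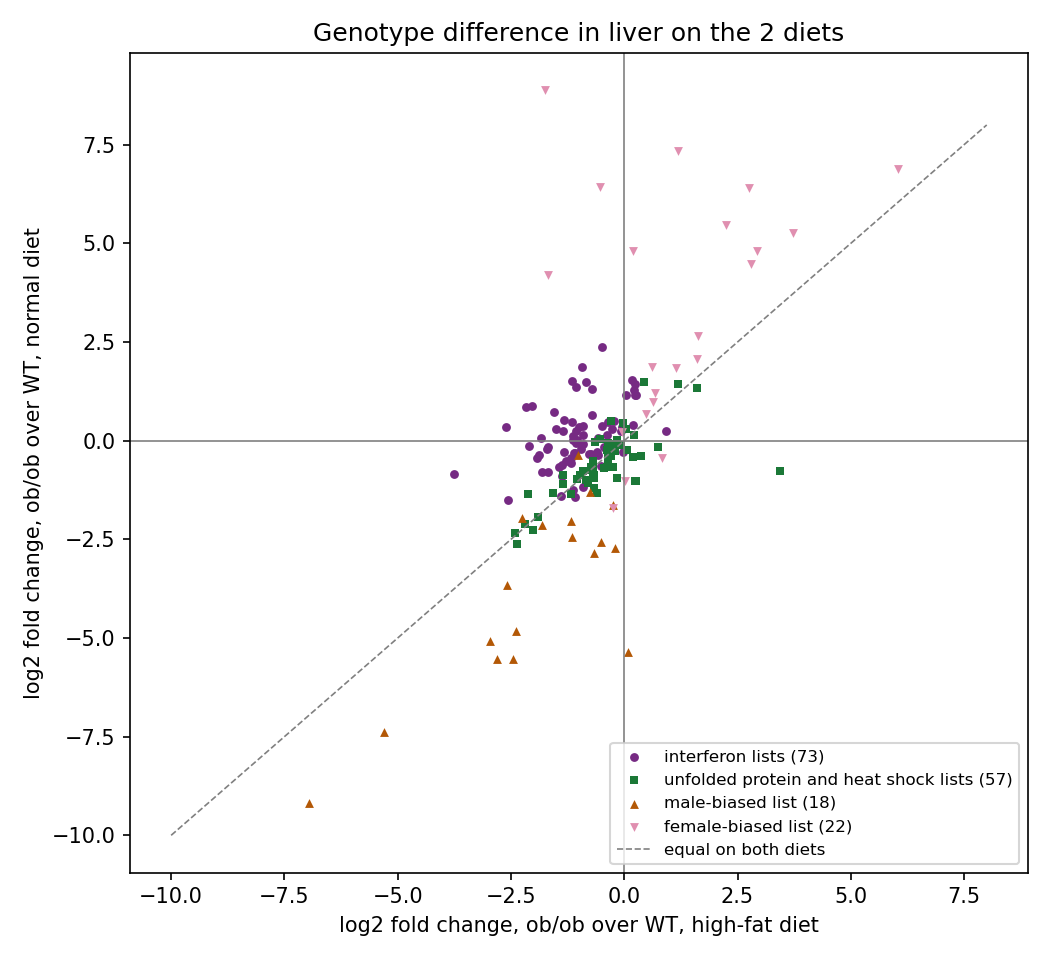
Log2 fold change of ob/ob over WT on HFD (x axis) against that on ND (y axis) for members of 6 gene lists that were tested, 1 point per gene. Interferon genes (purple) lie mostly left of 0 and around 0 on ND. Chaperone genes (green) follow the dashed line of equal change, and male-biased genes (brown) lie mostly below it.

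Genes of fat synthesis and storage differed little in number between the genotypes on this diet, and those that did went both ways. Insulin raises SREBP1c, and glucose activates ChREBP (the product of Mlxipl), to drive fatty acid synthesis. In the fatty acid synthesis list 2 of 21 rose and 3 fell, near the share in all genes; 4 rose without WT mouse 2, and 1 without WT mouse 1 or 3. Srebf1, which encodes SREBP1c, had 374, 189 and 248 CPM in ob/ob livers, against 135, 107 and 118 CPM in WT livers, a log2 fold change of 1.17 ± 0.24 (adjusted p = 0.00466). Mlxipl had 59.2, 65.5 and 68.5 CPM in ob/ob livers, against 102, 87.4 and 99.5 CPM in WT livers, a log2 fold change of -0.58 ± 0.09 (adjusted p = 0.00103). Nr1h3, the oxysterol receptor LXR alpha that raises Srebf1, had a log2 fold change of -0.43 ± 0.09 (adjusted p = 0.00523). Srebf1 was thus higher, and Mlxipl and Nr1h3 lower, in every ob/ob liver. Fasn, fatty acid synthase, had 193, 296 and 229 CPM in ob/ob livers, against 163, 219 and 111 CPM in WT livers, a log2 fold change of 0.54 ± 0.20 that did not pass (adjusted p = 0.0814). It passed without ob/ob mouse 1 (log2 fold change 0.68, adjusted p = 0.0461) or WT mouse 2 (0.81, adjusted p = 0.0146). Scd1, which makes monounsaturated fatty acids, had 8539, 10600 and 11663 CPM in ob/ob livers, against 11792, 12194 and 9570 CPM in WT livers and overlapped (adjusted p = 0.606), whereas on ND it had 31586, 26068 and 30658 CPM in ob/ob livers, against 14208, 16061 and 12490 CPM in WT livers. Its interaction was -1.17 ± 0.21 (adjusted p = 0.00605).

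For the assembly of triglyceride, 3 of 15 genes rose and 0 fell, against 8.61% and 9.85% of all genes. Lpin3, a phosphatidate phosphatase, had 9.701, 10.6 and 10.9 CPM in ob/ob livers, against 5.13, 7.25 and 4.16 CPM in WT livers, a log2 fold change of 0.91 ± 0.18 (adjusted p = 0.00424). Gpat4, an acyltransferase of the first step, had 322, 219 and 207 CPM in ob/ob livers, against 172, 176 and 185 CPM in WT livers. Its log2 fold change of 0.49 ± 0.13 (adjusted p = 0.0228) missed the threshold without WT mouse 1 (adjusted p = 0.07203) or WT mouse 2 (adjusted p = 0.0597). Dgat1, which completes triglyceride, had a log2 fold change of 0.33 ± 0.09 (adjusted p = 0.0221), which missed it without ob/ob mouse 3 (adjusted p = 0.0621) or WT mouse 2 (adjusted p = 0.0864). Gpat3 had a log2 fold change of 0.54 ± 0.18 (adjusted p = 0.0529).

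Among 26 lipid droplet and uptake genes 4 rose and 4 fell, against 8.61% and 9.85% of all genes. Pnpla2, the first lipase of stored triglyceride, had 113, 117 and 109 CPM in ob/ob livers, against 79.6, 73.2 and 58.8 CPM in WT livers, a log2 fold change of 0.68 ± 0.10 (adjusted p = 7.91e-04). Cidec, which fuses droplets into larger ones, had 183, 178 and 215 CPM in ob/ob livers, against 122, 115 and 81.4 CPM in WT livers. The Cidec log2 fold change of 0.85 ± 0.22 (adjusted p = 0.0181) missed the threshold without ob/ob mouse 3 (adjusted p = 0.0575) or WT mouse 3 (adjusted p = 0.0638). Slc27a2, which activates and imports fatty acids, had 963, 862 and 875 CPM in ob/ob livers, against 1497, 1346 and 1433 CPM in WT livers, a log2 fold change of -0.66 ± 0.09 (adjusted p = 5.34e-04). Fabp1, the abundant fatty acid carrier of the liver cytosol, had 3038, 2506 and 4416 CPM in ob/ob livers, against 6470, 5421 and 6303 CPM in WT livers, a log2 fold change of -0.87 ± 0.17 (adjusted p = 0.00317). Groups were separate for all 4. With 1 animal left out, the number that rose was between 2 (without ob/ob mouse 3 or WT mouse 3) and 5, and the number that fell between 2 (without ob/ob mouse 2) and 5.

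The fatty acid oxidation list, made of PPARA targets, had 4 genes that rose and 4 that fell among 34. That is 11.8% each, near the shares of 8.61% and 9.85% among all genes. Vnn1, a pantetheinase that tracks PPARA activity, had 152, 131 and 181 CPM in ob/ob livers, against 358, 276 and 308 CPM in WT livers, a log2 fold change of -1.02 ± 0.14 (adjusted p = 5.52e-04). Eci1, an isomerase of mitochondrial beta-oxidation, had a log2 fold change of -0.67 ± 0.12 (adjusted p = 0.00198). Ppara itself had 175, 132 and 175 CPM in ob/ob livers, against 206, 211 and 177 CPM in WT livers, a log2 fold change of -0.30 ± 0.13 that did not pass (adjusted p = 0.118). In contrast to these, Fgf21, a fasting and stress hormone of the liver, had 24.5, 31.98 and 31.6 CPM in ob/ob livers, against 10.4, 11.3 and 6.38 CPM in WT livers, a log2 fold change of 1.63 ± 0.33 (adjusted p = 0.00467). The number that rose in the list was 2 without ob/ob mouse 3 or WT mouse 3.

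Lipoprotein genes included 2 that rose and 3 that fell among 26, near the shares of 8.61% and 9.85% among all genes. Apoa4, an apolipoprotein of triglyceride-rich particles, had 2557, 3017 and 4502 CPM in ob/ob livers, against 1197, 1410 and 871 CPM in WT livers, a log2 fold change of 1.53 ± 0.21 (adjusted p = 5.08e-04). The WT livers on ND had 54.1, 54.6 and 47.8 CPM, and the interaction was -4.45 ± 0.31 (adjusted p = 2.58e-05): Apoa4 was high in the other 3 groups and lowest there. Lipc, hepatic lipase, had 103, 80.3 and 69.6 CPM in ob/ob livers, against 198, 156 and 181 CPM in WT livers, a log2 fold change of -1.08 ± 0.13 (adjusted p = 1.66e-04). Apom, a carrier of sphingosine 1-phosphate, had 68.7, 79.05 and 83.2 CPM in ob/ob livers, against 117, 128 and 132 CPM in WT livers, a log2 fold change of -0.71 ± 0.13 (adjusted p = 0.00285). Abcg1, a cholesterol exporter, had a log2 fold change of 0.95 ± 0.24 (adjusted p = 0.0135) that missed the threshold without ob/ob mouse 2, WT mouse 2 or WT mouse 3 (adjusted p = 0.0548, 0.0522 and 0.0513). The number that fell was 6 without ob/ob mouse 1. In cholesterol synthesis and uptake, 3 of 25 rose and 2 fell, also near the shares of all genes. Hsd17b7, a late enzyme of the pathway, had 43.7, 34.6 and 61 CPM in ob/ob livers, against 22.3, 29.2 and 26.3 CPM in WT livers, a log2 fold change of 0.84 ± 0.17 (adjusted p = 0.00453). Insig2, which retains SREBP in the endoplasmic reticulum, had a log2 fold change of 0.59 ± 0.13 (adjusted p = 0.00788). The number of genes that rose there was 7 without ob/ob mouse 2 and 5 without WT mouse 2.

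Bile acid genes were lower more often than genes at large. Of 24 tested 9 fell and 2 rose, against 9.85% and 8.61% of all genes. Slco1b2, the main uptake transporter for unconjugated bile acids and many drugs, had 1120, 1105 and 1311 CPM in ob/ob livers, against 2450, 2297 and 3052 CPM in WT livers. Without overlap, its log2 fold change was -1.14 ± 0.12 (adjusted p = 8.33e-05). Baat, which conjugates bile acids to taurine, had 314, 340.0 and 301 CPM in ob/ob livers, against 405, 413 and 473 CPM in WT livers, a log2 fold change of -0.43 ± 0.09 (adjusted p = 0.00422). Abcb11, the export pump, had 336, 271 and 223 CPM in ob/ob livers, against 479, 479 and 369 CPM in WT livers, a log2 fold change of -0.68 ± 0.16 (adjusted p = 0.00992). Nr0b2, the repressor SHP that the bile acid receptor FXR induces, had 27.5, 18.8 and 17.9 CPM in ob/ob livers, against 50.6, 42.6 and 32.1 CPM in WT livers. The Nr0b2 log2 fold change of -0.97 ± 0.25 (adjusted p = 0.0157) missed the threshold without ob/ob mouse 2, ob/ob mouse 3 or WT mouse 1 (adjusted p = 0.0524, 0.0574 and 0.0711). Cyp7a1, the rate-limiting enzyme of synthesis, had 302, 250.3 and 225 CPM in ob/ob livers, against 69.5, 103 and 291 CPM in WT livers. It overlapped through WT mouse 3, with a log2 fold change of 0.75 ± 0.45 (adjusted p = 0.265), and passed without that animal at 1.59 (adjusted p = 0.0121).

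Liver zonation genes differed by zone. Hepatocytes around the central vein and around the portal tract run different pathways, with drug oxidation and glutamine synthesis near the central vein and urea and amino acid metabolism in the portal zone. Of 21 pericentral genes 7 fell and 0 rose, and of 19 periportal genes 8 rose and 2 fell. Among all genes, 9.85% fell and 8.61% rose. The pericentral count was 4 without ob/ob mouse 2 or 3 or any one of the WT mice. Cyp1a2, which metabolises caffeine and many drugs, had 82.1, 56.5 and 50.96 CPM in ob/ob livers, against 230.2, 216 and 316 CPM in WT livers, a log2 fold change of -2.01 ± 0.19 (adjusted p = 3.56e-05). Cyp2c29 had 635, 203 and 259 CPM in ob/ob livers, against 1008, 942 and 1159 CPM in WT livers, a log2 fold change of -1.50 ± 0.32 (adjusted p = 0.00596), or -2.17 without ob/ob mouse 1. Gulo, the last enzyme of vitamin C synthesis, had a log2 fold change of -0.75 ± 0.14 (adjusted p = 0.00282). Glul, glutamine synthetase of the innermost pericentral cells, had 678, 651 and 801 CPM in ob/ob livers, against 1170, 1401 and 1199 CPM in WT livers. Its log2 fold change of -0.82 ± 0.22 (adjusted p = 0.0179) missed the threshold without ob/ob mouse 2 (adjusted p = 0.0567) or WT mouse 2 (adjusted p = 0.05701). The levels of the 2 genotypes did not overlap for any of these genes.

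On the periportal side, Ass1 and Asl encode successive urea cycle enzymes. Ass1 had 2350, 2029 and 1449 CPM in ob/ob livers, against 1069, 1289 and 1030 CPM in WT livers, a log2 fold change of 0.78 ± 0.15 (adjusted p = 0.00392). Asl had 725, 629.8 and 512 CPM in ob/ob livers, against 356, 411 and 397 CPM in WT livers, a log2 fold change of 0.68 ± 0.14 (adjusted p = 0.00549). Sdsl, a serine dehydratase-like enzyme, had a log2 fold change of 0.93 ± 0.15 (adjusted p = 0.00123). The exceptions included Cyp2f2, a portal cytochrome, which had 383, 425 and 431 CPM in ob/ob livers, against 651, 673 and 724 CPM in WT livers, a log2 fold change of -0.73 ± 0.13 (adjusted p = 0.00236). In the amino acid and urea list, which shares members with the periportal list, 8 of 28 rose and 2 fell. Among all genes, 8.61% rose and 9.85% fell. Got1 (chr19:43499752-43524605), the cytosolic aspartate aminotransferase, had 397, 396 and 325 CPM in ob/ob livers, against 80.02, 128 and 90.6 CPM in WT livers. This was a log2 fold change of 1.90 ± 0.20 (adjusted p = 9.21e-05). Gpt2, an alanine aminotransferase of mitochondria, had 1122, 1155 and 1194 CPM in ob/ob livers, against 663, 744 and 727 CPM in WT livers, a log2 fold change of 0.70 ± 0.08 (adjusted p = 1.76e-04). Otc, the urea cycle enzyme that makes citrulline, had 467, 458 and 379 CPM in ob/ob livers, against 666, 634 and 802 CPM in WT livers, a log2 fold change of -0.69 ± 0.12 (adjusted p = 0.00152), opposite to Ass1 and Asl.

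Glucose and insulin genes were called at about the share of all genes, 2 rising and 4 falling among 26. Ppp1r3c, which targets a phosphatase to glycogen, had 40.6, 40.04 and 28.4 CPM in ob/ob livers, against 79.9, 98.5 and 84.4 CPM in WT livers, a log2 fold change of -1.27 ± 0.24 (adjusted p = 0.00294). Pfkfb3 and Pfkfb1, which set the level of the glycolytic activator fructose 2,6-bisphosphate, had log2 fold changes of -1.08 ± 0.25 (adjusted p = 0.00969) and -0.75 ± 0.18 (adjusted p = 0.0116). Akt1, a kinase of the insulin pathway, had a log2 fold change of 0.34 ± 0.08 (adjusted p = 0.0104). G6pc, the last step of glucose release, had 99.8, 248 and 132 CPM in ob/ob livers, against 258, 297 and 338 CPM in WT livers, a log2 fold change of -0.90 ± 0.31 that did not pass (adjusted p = 0.0609) except without ob/ob mouse 2 (-1.36, adjusted p = 0.00627).

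Of 30 xenobiotic genes tested, 8 fell and 5 rose, against 9.85% and 8.61% of all genes. Nr1i3, the drug-sensing receptor CAR, had 36.9, 16.7 and 29.8 CPM in ob/ob livers, against 83.2, 73.5 and 75.6 CPM in WT livers, a log2 fold change of -1.48 ± 0.23 (adjusted p = 9.47e-04). Nqo1, a quinone reductase induced by NRF2, had 33.9, 28.02 and 33.6 CPM in ob/ob livers, against 17.8, 11.4 and 10.9 CPM in WT livers, a log2 fold change of 1.24 ± 0.19 (adjusted p = 7.70e-04). Gstm3, a glutathione transferase, had 169, 153 and 172 CPM in ob/ob livers, against 52.8, 69.7 and 22.2 CPM in WT livers, a log2 fold change of 1.76 ± 0.29 (adjusted p = 0.00118). All ob/ob livers were below the WT livers for Nr1i3, and above them for Nqo1 and Gstm3. The number that fell was 4 without WT mouse 3 and 5 without ob/ob mouse 2, ob/ob mouse 3 or WT mouse 1, and the number that rose was 3 without ob/ob mouse 1, WT mouse 1 or WT mouse 2.

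Macrophage and fibrosis genes gave a limited picture. Macrophages that take up lipid express lysosomal and scavenger genes such as Gpnmb, Cd9 and Trem2. Of 21 tested genes of that kind 6 rose and 0 fell, against 8.61% and 9.85% of all genes. Their median log2 fold change was 0.62. Their summed level was 1806 to 2605 CPM in ob/ob livers, against 1478 to 1763 CPM in WT livers. Cd63, a lysosomal tetraspanin that is not specific to macrophages, had 27.3, 65 and 57.5 CPM in ob/ob livers, against 9.45, 13.9 and 9.95 CPM in WT livers, a log2 fold change of 2.16 ± 0.26 (adjusted p = 1.95e-04). Lgals3, the lectin galectin-3, had 28.4, 61.4 and 32.1 CPM in ob/ob livers, against 12.6, 15.99 and 14.9 CPM in WT livers, a log2 fold change of 1.49 ± 0.27 (adjusted p = 0.00249). Mmp12, the macrophage elastase, had 30.9, 59.2 and 25.5 CPM in ob/ob livers, against 10.99, 17.3 and 11.4 CPM in WT livers, a log2 fold change of 1.54 ± 0.29 (adjusted p = 0.00282). Cd9 had a log2 fold change of 1.46 ± 0.25 (adjusted p = 0.00154). Ob/ob mouse 2 was the highest of the 6 animals for each of these 4 genes.

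That animal weighed most for the more specific members. Gpnmb had 20.4, 76.4 and 13.3 CPM in ob/ob livers, against 3.298, 12.2 and 3.67 CPM in WT livers. The Gpnmb log2 fold change of 2.50 ± 0.63 (adjusted p = 0.0147) was 1.38 without ob/ob mouse 2 (adjusted p = 0.0741) and 3.40 without WT mouse 2, and it missed the threshold without WT mouse 1 or 3 (adjusted p = 0.0637 and 0.0532). Trem2, the lipid-sensing receptor that defines these cells, had 3.43, 12.7 and 3.597 CPM in ob/ob livers, against 1.47, 3.96 and 2.51 CPM in WT livers, overlapped and did not pass (log2 fold change 1.31 ± 0.49, adjusted p = 0.0783). It passed without ob/ob mouse 1 (adjusted p = 0.0352) or ob/ob mouse 3 (adjusted p = 0.0447). Of 18 resident macrophage genes 1 rose (5.56%) and 0 fell, against 8.61% and 9.85% of all genes. The gene that rose was Vsig4, a complement receptor. Vsig4 had 37.6, 36.6 and 31.3 CPM in ob/ob livers, against 11.7, 17.3 and 18.3 CPM in WT livers, a log2 fold change of 1.17 ± 0.27 (adjusted p = 0.00939).

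Of 34 stellate cell and fibrosis genes 0 rose and 2 fell, against 8.61% and 9.85% of all genes. Their median was -0.17, and 11 fell without ob/ob mouse 2. Col5a3, a fibrillar collagen chain, had 29.2, 27.6 and 27.4 CPM in ob/ob livers, against 41.6, 41.1 and 41.7 CPM in WT livers, a log2 fold change of -0.56 ± 0.13 (adjusted p = 0.00982). In the cell cycle list 0 of 29 passed in either direction by edgeR or by DESeq2, and 7 had an unadjusted p under 0.05 in edgeR; 4 rose without ob/ob mouse 1. Among endothelial genes 1 of 18 rose: Lyve1, the hyaluronan receptor of sinusoids, had 20.7, 23.1 and 24.5 CPM in ob/ob livers, against 13.5, 12.9 and 7.25 CPM in WT livers, a log2 fold change of 1.005 ± 0.23 (adjusted p = 0.00887). Krt23, a stress-inducible keratin counted here with bile duct genes, had 0.448, 1.599 and 0.674 CPM in ob/ob livers, against 15.5, 6.65 and 5.798 CPM in WT livers, a log2 fold change of -3.34 ± 0.46 (adjusted p = 4.53e-04), or -4.04 without ob/ob mouse 2 and -2.75 without WT mouse 1.

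Acute phase genes rose in 7 and fell in 3 of 28 cases, against 8.61% and 9.85% of all genes. Hpx, the haem carrier hemopexin, had 6626, 6746 and 7200 CPM in ob/ob livers, against 4250, 4258 and 5013 CPM in WT livers, a log2 fold change of 0.61 ± 0.11 (adjusted p = 0.00203). Itih3, a hyaluronan-binding inhibitor chain, had a log2 fold change of 0.81 ± 0.13 (adjusted p = 0.00117). Saa4, a constitutive serum amyloid, had 234, 154 and 125 CPM in ob/ob livers, against 614, 462 and 758 CPM in WT livers, a log2 fold change of -1.84 ± 0.23 (adjusted p = 2.23e-04), and Crp, C-reactive protein, one of -0.88 ± 0.13 (adjusted p = 5.83e-04). Lcn2, an iron-siderophore binder, had 150.4, 271 and 119 CPM in ob/ob livers, against 57.2, 74.7 and 116 CPM in WT livers. The Lcn2 log2 fold change of 1.13 ± 0.31 (adjusted p = 0.0238) missed the threshold without ob/ob mouse 2, WT mouse 1 or WT mouse 2 (adjusted p = 0.0985, 0.0903 and 0.0716). The number that rose was 4 without ob/ob mouse 2 or WT mouse 1, and the number that fell was 5 without ob/ob mouse 1 or 2.

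Metallothioneins, which bind zinc and copper, are induced by glucocorticoids and metals. Mt1 had 299, 325 and 329 CPM in ob/ob livers, against 82.9, 113 and 124 CPM in WT livers, a log2 fold change of 1.57 ± 0.36 (adjusted p = 0.00914). Mt2 had 37.6, 44.6 and 38.6 CPM in ob/ob livers, against 10.99, 12.6 and 17.3 CPM in WT livers, a log2 fold change of 1.57 ± 0.41 (adjusted p = 0.0169) that missed the threshold without WT mouse 1 or 2 (adjusted p = 0.0676 and 0.0518). In the glucocorticoid list that holds them 3 of 15 rose and 2 fell, against 8.61% and 9.85% of all genes. The number that rose there was 1 without WT mouse 1 or 2. Of 19 clock genes 3 rose and 2 fell, against the same shares of all genes. Nfil3, a repressor in the clock output, had 6.49, 3.89 and 4.95 CPM in ob/ob livers, against 17.95, 16.6 and 13.3 CPM in WT livers, a log2 fold change of -1.65 ± 0.28 (adjusted p = 0.00155). Rora, a clock activator, had a log2 fold change of 0.45 ± 0.09 (adjusted p = 0.00411). Nr1d1, the repressor REV-ERB alpha, had a log2 fold change of -0.61 ± 0.15 (adjusted p = 0.01099), which missed the threshold without WT mouse 1 (adjusted p = 0.0545). The number of clock genes that rose was 1 without ob/ob mouse 1 or WT mouse 1, and the hour at which livers were taken is not given in the sources used here.

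In the adipocyte list 3 of 5 tested genes fell, and in the erythroid list 2 of 5 rose and 1 fell. Among all genes, 8.61% rose and 9.85% fell. Without ob/ob mouse 1, 4 erythroid genes rose, and 1 rose without ob/ob mouse 2 or 3 or WT mouse 1 or 3. Car3, a carbonic anhydrase, had 1720, 976 and 1843 CPM in ob/ob livers, against 5745, 4465 and 5424 CPM in WT livers, a log2 fold change of -1.78 ± 0.20 (adjusted p = 1.29e-04). Cfd, the serine protease adipsin, had 0.448, 0.278 and 0.974 CPM in ob/ob livers, against 16.6, 9.42 and 42.4 CPM in WT livers, a log2 fold change of -5.31 ± 1.10 (adjusted p = 0.00529), or -4.51 without WT mouse 3 and -5.93 without ob/ob mouse 3. Adrb3, an adrenergic receptor, had a log2 fold change of -2.07 ± 0.47 (adjusted p = 0.00837). The fat cell markers Plin1, Retn and Nnat had too few counts to be tested. Alas2, the erythroid enzyme of haem synthesis, had 45.4, 52.4 and 52.3 CPM in ob/ob livers, against 87.9, 91.5 and 115 CPM in WT livers, a log2 fold change of -0.97 ± 0.11 (adjusted p = 1.51e-04), while Hba-a2, an alpha globin gene, had 8.66, 19.7 and 23.4 CPM in ob/ob livers, against 5.86, 9.04 and 5.31 CPM in WT livers and overlapped (log2 fold change 1.35 ± 0.31, adjusted p = 0.00933). Among 9 tested genes of fetal liver and liver cancer 3 rose and 0 fell. S100a11, a calcium-binding protein, had 23.7, 51.8 and 39.1 CPM in ob/ob livers, against 13.6, 15.9 and 8.99 CPM in WT livers, a log2 fold change of 1.56 ± 0.24 (adjusted p = 8.98e-04), and Ly6d, a surface protein, had 46.3, 146 and 95.8 CPM in ob/ob livers, against 38.6, 42.4 and 16.8 CPM in WT livers, one of 1.55 ± 0.37 (adjusted p = 0.0113). That count was 6 without ob/ob mouse 1.

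Beyond the lists, the genes with the highest fold changes were transcripts of low level that were nearly silent in WT livers. Bmper (chr9:23223076-23485200), a secreted modulator of bone morphogenetic proteins, had 11.9, 14.8 and 13.6 CPM in ob/ob livers, against 1.03, 1.05 and 0.8697 CPM in WT livers. It was the most even of them, with a log2 fold change of 3.76 ± 0.28 (adjusted p = 7.19e-06). Lrtm2, a leucine-rich repeat membrane protein, had 6.72, 8.48 and 1.87 CPM in ob/ob livers, against 0.2198, 0.299 and 0.0966 CPM in WT livers, a log2 fold change of 4.68 ± 0.77 (adjusted p = 0.00133). Shc2, an adaptor of receptor tyrosine kinases, had 1.64, 20.6 and 5.32 CPM in ob/ob livers, against 0.366, 0.523 and 0.2899 CPM in WT livers, a log2 fold change of 4.50 ± 0.92 (adjusted p = 0.00653), or 3.09 without ob/ob mouse 2. Rasl10b, a small GTPase, had 1.19, 3.75 and 4.12 CPM in ob/ob livers, against 0.0733, 0.224 and 0.0966 CPM in WT livers, a log2 fold change of 4.41 ± 0.61 (adjusted p = 4.94e-04), or 5.03 without WT mouse 2. Calml4, a calmodulin-like protein, had a log2 fold change of 3.46 ± 0.49 (adjusted p = 5.52e-04), or 4.75 without WT mouse 3. Tubb2b, a tubulin, had one of 3.31 ± 0.72 (adjusted p = 0.00682).

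Pde10a, which degrades cyclic nucleotides, had 1.27, 11.2 and 2.997 CPM in ob/ob livers, against 0.513, 0.897 and 0.387 CPM in WT livers, a log2 fold change of 3.06 ± 0.70 (adjusted p = 0.00885), or 1.79 without ob/ob mouse 2. Slc25a24, a mitochondrial carrier of ATP and phosphate, had 4.48, 17.9 and 6.52 CPM in ob/ob livers, against 1.03, 1.35 and 1.64 CPM in WT livers, a log2 fold change of 2.86 ± 0.49 (adjusted p = 0.00172), or 2.05 without that mouse. Adcy1, an adenylyl cyclase, had 0.746, 1.32 and 0.899 CPM in ob/ob livers, against 0.147, 0.224 and 0 CPM in WT livers, a log2 fold change of 2.81 ± 0.74 (adjusted p = 0.0183), or 3.44 without WT mouse 2. It missed the threshold without ob/ob mouse 2, WT mouse 1 or WT mouse 3 (adjusted p = 0.0702, 0.0565 and 0.0549). The ob/ob animals were above the WT animals in each of these genes. They were named only if the groups did not overlap, so the separation of the animals was set by that choice. Ob/ob mouse 2 was the highest for Shc2, Tubb2b, Pde10a, Slc25a24 and Adcy1.

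The genotype difference depended on diet in 817 genes by the interaction test, 292 in the higher direction (2.2% of those tested) and 525 in the lower (3.96%), together 6.17%. Without WT mouse 1 the interaction called 494, 165 higher and 329 lower. Of the 817, 326 were also called between the genotypes on HFD. The lowest interactions belonged to genes that were almost silent in WT livers on ND. Cyp2b9, a female-biased cytochrome, had 214, 22.2 and 254 CPM in ob/ob livers, against 377, 186 and 146 CPM in WT livers on HFD, and 205, 275 and 266 CPM in ob/ob livers, against 2.505, 1.82 and 4.37 CPM in WT livers on ND. Its interaction was -6.97 ± 0.99 (adjusted p = 0.00155), while the HFD difference of -0.53 ± 0.58 did not pass (adjusted p = 0.569). Ephb2, a receptor for membrane-bound ephrins, had 9.92, 16.9 and 16.6 CPM in ob/ob livers, against 3.96, 8.82 and 1.84 CPM in WT livers on HFD, a log2 fold change of 1.53 ± 0.37 (adjusted p = 0.0126), or 2.27 without WT mouse 2. It missed the threshold without WT mouse 1 (adjusted p = 0.0569), and on ND it had 24.4, 34.1 and 38.8 CPM in ob/ob livers, against 0, 0.0868 and 0 CPM in WT livers. Cyp2b13 and Sprr1a had 2 and 0 counts in all WT livers on ND, so only levels are given. Cyp2b13, another female-biased cytochrome, had 17.8, 0.209 and 7.94 CPM in ob/ob livers, against 66.6, 10.5 and 8.600 CPM in WT livers on HFD, and 9.47, 24.9 and 63.4 CPM in ob/ob livers, against 0.0864, 0 and 0.09500 CPM in WT livers on ND. Sprr1a, a cornified envelope protein, had 3.73, 4.24 and 17.01 CPM in ob/ob livers, against 3.52, 3.66 and 1.74 CPM in WT livers on HFD, and 9.03, 9.48 and 21.1 CPM in ob/ob livers, against 0, 0 and 0 CPM in WT livers on ND.

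Of the 4 genes with the highest interactions, Cyp4a12b, Pitx3 and Cadm4 were high in WT livers on ND alone. Cyp4a12b, a male-biased fatty acid hydroxylase, had 2.69, 7.09 and 2.25 CPM in ob/ob livers, against 0.366, 3.14 and 8.600 CPM in WT livers on HFD, and 1.25, 0.702 and 0.999 CPM in ob/ob livers, against 60.6, 34.5 and 26.8 CPM in WT livers on ND. Pitx3, a homeobox gene, had 0.298, 0.348 and 0.225 CPM in ob/ob livers, against 0.953, 0.598 and 0.773 CPM in WT livers on HFD, and 0.0734, 0.0702 and 0.0713 CPM in ob/ob livers, against 5.27, 10.8 and 5.04 CPM in WT livers on ND. Cadm4, a cell adhesion molecule, had 1.34, 0.695 and 0.375 CPM in ob/ob livers, against 0.2198, 0.673 and 0.966 CPM in WT livers on HFD, and 0.2203, 0.492 and 0.357 CPM in ob/ob livers, against 8.21, 7.201 and 6.75 CPM in WT livers on ND. Their interactions were 5.45 ± 1.002, 5.05 ± 0.81 and 4.75 ± 0.69 (adjusted p = 0.00719, 0.00312 and 0.00177). Scara5, a ferritin receptor, had an interaction of 5.01 ± 1.30 (adjusted p = 0.0377), with 2.16, 9.94 and 2.92 CPM in ob/ob livers, against 0.6595, 0.598 and 3.38 CPM in WT livers on HFD. None of these 4 genes passed between the genotypes on HFD with all animals, and Scara5 passed without WT mouse 3 (log2 fold change 2.98, adjusted p = 0.03604).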

How the data were processed

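Liver counts of 12 mice were used. The authors deposited raw fragment counts for 49671 Ensembl genes, made per the file headers with featureCounts, with no option for strand or for reads with several matches. The submitters' processing notes name Trimmomatic 0.36, HISAT2 2.0.5, featureCounts 1.5.0-p2 and GRCm38. Overlapping genes on opposite strands and near-identical genes are therefore uncertain. Body, organ and blood measures are other values, as deposited for each animal.

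Symbols came from a reference table that names 49326 of the genes. The 12 liver libraries were fitted with edgeR 4.0.16 in R 4.3.3 (filterByExpr with a smallest count of 10 and a smallest total of 15, TMM scaling, a mean per group, quasi-likelihood test), and p values were adjusted by Benjamini-Hochberg over 13246 genes. The standard error is the size of the log2 fold change divided by the square root of F. The fit was tested on simulated counts.

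The members and the gene lists were chosen with earlier results of these data known. Named genes are those called on HFD with a regular symbol, an average log2 CPM of at least 1 and no overlap that have the 12 highest and 12 lowest fold changes, the 4 highest and 4 lowest interactions, up to 4 members of each list with the smallest p, regulators at the head of a list, Lep and Lepr. Picked after their values were seen were Ifit1, Isg15, Asns, Rbm3, Asl, Glul, Lcn2, Gpnmb, Trem2, Abcb11, Cyp7a1, Fasn, Scd1, G6pc, Igf1, Cish, Alb, Nnt, Wdfy1, Mthfd1l and Psat1. For body measures the exact permutation test was two-sided and adjusted over 16 measures. Alternatives were DESeq2 1.42.0, its size factors, no filter, a block for the mouse number, the 6 HFD libraries alone and each animal left out. Some members of the lists and some genes that the naming rule picks are not reported here.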

Additional observations from a re-analysis of the deposited data

Results flagged for a closer look

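The genotype difference of 47 named genes on HFD differed from that on ND by the interaction test of edgeR (adjusted p under 0.05), and each is given here with the log2 difference, HFD minus ND. Negative values mean that ob/ob was lower relative to WT on HFD than on ND.

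In interferon genes the difference was -3.01 for Ifit3, -2.92 for Ifit1, -2.89 for Gbp10, -2.87 for Ciita, -1.95 for Isg15, -0.99 for Irf7, -0.82 for Tap1, -0.77 for Irgm2, -0.75 for Parp14, -0.74 for Irgm1 and -0.60 for Irf9. Except for Ciita, which did not pass, these genes fell on HFD.

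Genes of the acute phase, lipid-associated macrophage, fetal liver and cancer, endothelial and glucocorticoid lists were also on the negative side. The 8 named here nevertheless rose in ob/ob livers on HFD. The values were -3.66 for Lcn2, -3.56 for Mmp12, -2.12 for Cd63, -2.06 for S100a11, -4.99 for Ly6d, -1.76 for Lyve1, -2.31 for Mt1 and -2.27 for Mt2. In lipid genes it was -4.45 for Apoa4, -2.65 for Cidec, -1.23 for Gpat3, -1.17 for Scd1 and -0.86 for Vnn1, of which Apoa4 and Cidec rose on HFD and Vnn1 fell. Further negative values were -10.63 for Cyp2b13, -8.96 for Sprr1a, -8.15 for Ephb2, -6.97 for Cyp2b9, -5.54 for Cfd, -3.65 for Cyp2a4, -2.71 for Bmper, -1.57 for Gstm3, -1.17 for Car3 and -0.79 for Gpt2. Cyp2b13, Sprr1a and Ephb2 had 2, 0 and 1 counts over the WT livers on ND, so their fitted values depend on the prior count and are no bounds.

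Positive values were found for Itih3 at 1.08, Ppp1r3c at 1.28, Pfkfb3 at 1.35, Apom at 1.41, Nr0b2 at 2.19, Cyp7b1 at 2.43, Socs2 at 2.59, Elovl3 at 3.07, Asns at 4.22, Cadm4 at 4.75, Scara5 at 5.01, Pitx3 at 5.05 and Cyp4a12b at 5.45. Ppp1r3c, Pfkfb3, Apom, Nr0b2, Cyp7b1 and Elovl3 fell in ob/ob livers on both diets, by less on HFD, while Itih3, Socs2 and Asns rose on HFD.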

How the results depend on the processing

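The count of genes called on HFD was 2440 with DESeq2's size factors, 2407 with DESeq2's Wald test and 2913 without the filter on low counts. It was 1484 (652 higher, 832 lower) with the 6 HFD libraries alone, which leaves fewer degrees of freedom. Same-numbered animals correlated at 0.120, 0.108 and 0.0141 in their deviations, and differently numbered animals at -0.128 to 0.0235. Ob/ob mouse 3 correlated best with WT mouse 1. Whether the mouse numbers pair the animals was not tested, and the main fit did not treat them as pairs. With the replicate block, 2289 genes were called on HFD and 768 for the interaction. The interaction called 1496 genes (542 higher, 954 lower) without the filter, and 483 higher with the Wald test, and the cause was not tested. Leaving out 1 animal at a time gave 1637 to 2229 calls on HFD (695 to 1027 higher) and 494 to 908 for the interaction (165 to 342 higher, 329 to 591 lower). Blood glucose, ob/ob minus WT, was between -35.7 and 41.7 mg/dL and triglyceride between -6.5 and 17 mg/dL with 1 mouse left out. Among named genes not called on HFD, the log2 fold change ran from -0.12 to 2.80 for Epcam, -2.68 to 3.98 for Lep, -0.62 to 1.21 for Cyp4a12b and -0.14 to 0.84 for Cadm4 when 1 animal was left out. In the same fits 31 to 38 type I interferon genes, 17 to 20 unfolded protein genes and 11 to 13 heat shock genes fell, while small counts in several other lists changed by over 1.5 times. With 3 animals a group, genes with small changes or of low level can be missed.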

Other observations

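Some of the smallest p values of the comparison belonged to genes outside every list, and they were picked after their values were seen. Nnt (chr13:119335448-119408997), the transhydrogenase that makes NADPH in mitochondria, had 225, 191 and 260.0 CPM in ob/ob livers, against 75.1, 69.1 and 55.1 CPM in WT livers. Its log2 fold change was 1.76 ± 0.13 by edgeR (adjusted p = 7.19e-06). On ND it had 240.0, 241 and 247 CPM in ob/ob livers, against 50.1, 49.3 and 55.1 CPM in WT livers, with a log2 fold change of 2.24. Wdfy1, an endosomal adaptor of Toll-like receptors, had 31.9, 28.02 and 38.6 CPM in ob/ob livers, against 7.99, 5.08 and 6.47 CPM in WT livers, a log2 fold change of 2.33 ± 0.16 (adjusted p = 7.19e-06), and on ND it had 29.9, 33.6 and 28.8 CPM in ob/ob livers, against 5.61, 6.16 and 6.37 CPM in WT livers. The ob/ob livers stood above the WT livers on both diets in these genes, and the interactions did not pass (adjusted p = 0.127 for Nnt and 0.983 for Wdfy1). The strain background of the mice is not named in the labels, and its part in these differences was not tested.

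Another pair of genes was picked in the same way. Mthfd1l, which releases formate from mitochondria, had 25.2, 17.9 and 19.3 CPM in ob/ob livers, against 4.69, 3.51 and 2.996 CPM in WT livers, a log2 fold change of 2.46 ± 0.19 (adjusted p = 9.93e-06). Psat1, the aminotransferase of serine synthesis, had 4.18, 5.28 and 3.67 CPM in ob/ob livers, against 1.099, 0.897 and 0.966 CPM in WT livers, a log2 fold change of 2.14 ± 0.24 (adjusted p = 1.25e-04). Neither gene overlapped between the genotypes on HFD.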
